A study of Oryza sativa with 6 samples.

Results

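ADP-glucose pyrophosphorylase is the enzyme that makes ADP-glucose, the sugar donor for starch, and the 6 rice genes for its subunits were followed here in developing seeds of an RBP-L knockdown line and of wild type. The genes were chosen by identity from a fixed list of locus identifiers, 6 of the 55986 loci in the deposited table: AGPL1 (LOC_Os05g50380), AGPL2 (LOC_Os01g44220), AGPL3 (LOC_Os03g52460) and AGPL4 (LOC_Os07g13980) for the large subunits, and AGPS1 (LOC_Os09g12660) and AGPS2 (LOC_Os08g25734) for the small subunits. They lie on chromosomes 5, 1, 3, 7, 9 and 8 by their identifiers. The tested plants were rbpl, a knockdown line for RBP-L, an RNA-binding protein, and the controls were wild-type ZH11, a japonica cultivar, with 3 biological repeats of each numbered 1 to 3; values per library follow that order. Both were grown at 27 °C with 12 h of light a day, and RNA came from whole dehulled seeds 10 to 14 days after flowering. A single line was set against the cultivar, and how RBP-L was lowered is not given in the labels used here, so other differences of that line cannot be told apart from those due to RBP-L.

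The enzyme is a heterotetramer of large and small subunits. It joins glucose 1-phosphate and ATP to ADP-glucose and pyrophosphate, and is held to be a main point of control of starch synthesis, in which the large subunit has a mostly regulatory and the small subunit a mostly catalytic role. In most plant organs the enzyme lies in plastids, but in cereal endosperm most of it lies in the cytosol. In rice that cytosolic form is built from AGPL2 and one product of AGPS2, and ADP-glucose is then carried into the amyloplast. Loss of either gene gives shrunken grains. AGPS2 has 2 RefSeq transcripts, and 2 products of the gene are known in rice, AGPS2a, a plastid protein, and AGPS2b, the cytosolic one. The deposited value is one number for the locus and does not separate them. AGPL1, AGPL3, AGPL4 and AGPS1 are the plastid forms.

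Levels are given in RPKM, read counts divided by gene length and by library depth, which can be compared between genes. Libraries held between 44187374 and 50714582 reads, and read counts of single genes were recovered from the steps in the RPKM values. RBP-L itself (LOC_Os04g53440) was 15.1, 14.4 and 15.3 RPKM in the rbpl libraries, against 62.8, 56.8 and 51.2 RPKM in the WT libraries, and its log2 fold change was -1.86 (limma, adjusted p = 0.000159). WT-1 stood apart from its group: 17.4% of the 17507 loci tested lay over 1.5-fold from both other WT libraries, while in each of the other 5 libraries 1.37% to 1.97% did so. Values without WT-1 are given beside results whose calls it changed and beside subunit results that it turned. For the class sums of other starch loci they are not given. Of loci listed as seed markers, the 4 for storage proteins summed to between 11007 and 12331 RPKM in rbpl seeds, against 12008 to 18556 RPKM in WT seeds, and 0 of them were at 0, so RNA of the labelled tissue was present in every library. Of these 4, limma called 0, where 6.56% of all tested loci were called. Their log2 fold changes were -0.85, -0.79, 0.13 and -0.19, with a smallest adjusted p of 0.0671 by limma. The locus at 0.13 had the highest mean level of the 4, 6326 RPKM, and so weighs most in the sum. Before adjustment 2 of the 4 had a limma p below 0.05, beside 3777 of the 17507 loci tested. Without WT-1 2 of the 4 fell, a setting in which 1652 of 17372 tested loci fell.

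The 6 genes differed widely in level, and the pair of the cytosolic enzyme led them. AGPS2 averaged 505 RPKM and AGPL2 494 RPKM over the 6 libraries, which placed them 159th and 166th by mean level among the tested loci. The order of these 2 genes was not the same in every library. AGPL2 was the higher in 5 of 6 libraries and AGPS2 only in WT-1, with AGPS2 to AGPL2 ratios from 0.942 to 1.26. AGPS1 followed at 151 RPKM, a level 3.26-fold below AGPL2 and lower than it in 6 of 6 libraries. AGPL3 averaged 39.8 RPKM and AGPL1 22.6 RPKM, and AGPL3 was higher than AGPL1 in 6 of 6 libraries, by 1.26-fold to 2.41-fold. AGPL4, at 0.855 RPKM, was the lowest in every library. These positions are a description of the levels, with no test.

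**Figure D1:**
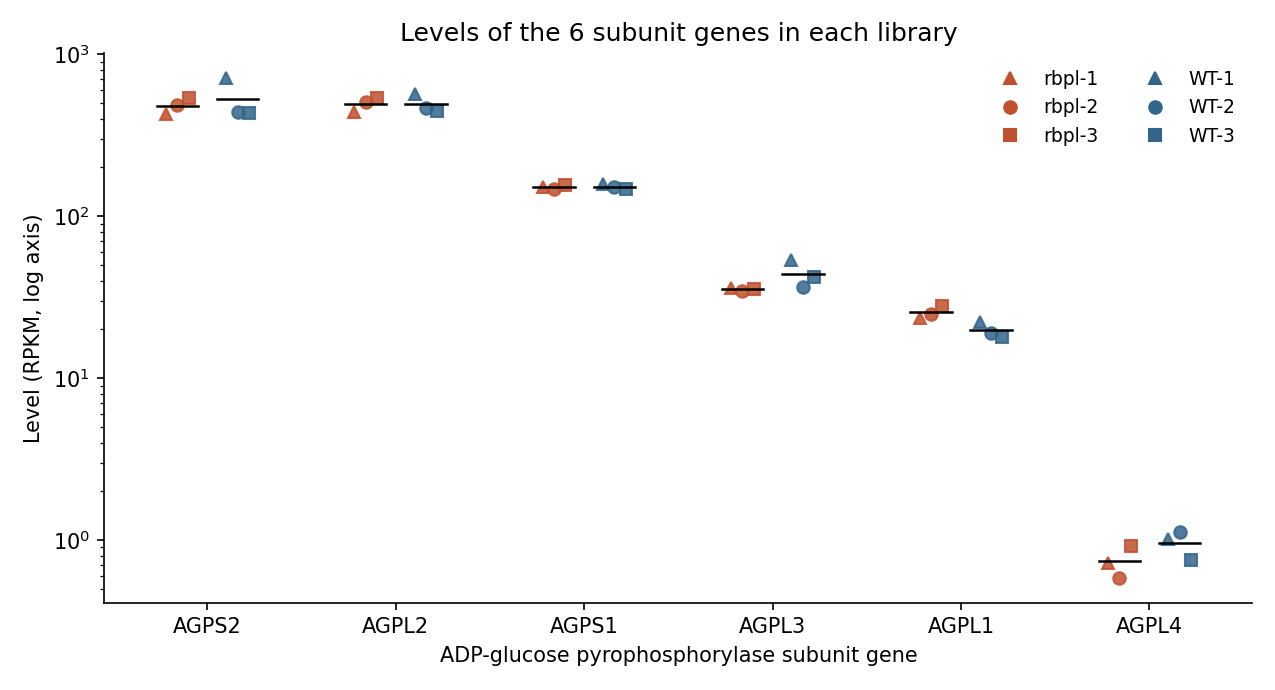
Level of each subunit gene in RPKM on a log axis, with rbpl libraries in red left of WT libraries in blue, 1 symbol per library and a black line at each group mean. AGPS2 and AGPL2 average 505 and 494 RPKM, and AGPL4 averages 0.855 RPKM; groups overlap for AGPS2, AGPL2, AGPS1 and AGPL4, while AGPL3 is lower and AGPL1 higher in all 3 rbpl libraries.

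Whether lowering RBP-L moved any subunit transcript was tested in a fit over all 17507 loci with a mean of at least 1 RPKM in at least 1 group (limma on log2(RPKM + 1), threshold of 0.05 on the adjusted p). None of the subunit genes passed: of the 6 genes 5 were tested, 0 were called, and 1 had an unadjusted p below 0.05, and their log2 fold changes ran from -0.30 to 0.36. Over all tested loci 6.56% were called (3.46% rose and 3.1% fell), and the same filter left 3777 loci with an unadjusted p below 0.05, so 0 of 5 does not set these genes apart. By limma-voom on the recovered reads 0 of the 5 were called as well, against 6.7% of all loci. The median log2 fold change was -0.0022 over the 5 genes, beside -0.04 over all tested loci.

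AGPL2, the large subunit of the cytosolic endosperm enzyme, had 442, 505 and 538 RPKM in the rbpl libraries, against 566, 464 and 446 RPKM in the WT libraries. The groups overlapped, with the highest value in WT-1 and the lowest in rbpl-1. The means were 495 ± 49.2 RPKM in rbpl seeds and 492 ± 65.0 RPKM in WT seeds (SD, n = 3 each), from 70604 to 91834 reads per library. The log2 fold change was 0.01 ± 0.14 (standard error), with adjusted p = 0.969 by limma. Its 95% interval, -0.30 to 0.33, spans 0.811-fold to 1.26-fold on the log2(RPKM + 1) scale, so the fit leaves room for a moderate change in either direction.

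AGPS2, which encodes the small subunit of the same enzyme, had 427, 483 and 536 RPKM in the rbpl libraries, against 714, 437 and 433 RPKM in the WT libraries. WT-1 was 1.64-fold above the mean of the other WT libraries and above all 3 rbpl libraries, while rbpl-1 was the lowest of all. The means were 482 ± 54.7 RPKM in rbpl seeds and 528 ± 161 RPKM in WT seeds (SD, n = 3 each). The log2 fold change was -0.10 ± 0.21 (standard error; limma, adjusted p = 0.827). This gene had the widest interval of the 5 tested, -0.57 to 0.38. Without WT-1 its log2 fold change turned to 0.14, with an adjusted p of 0.384 by limma, so its direction rested on that library. Counting error was small beside this spread, 0.430% of the level in rbpl libraries and 0.427% in WT libraries, while the coefficient of variation between libraries was 11.4% in rbpl seeds and 30.5% in WT seeds.

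AGPS1, the plastid small subunit, varied little between libraries. It had 152, 147 and 155 RPKM in the rbpl libraries, against 157, 151 and 146 RPKM in the WT libraries, and WT-1 lay with the others. Its means were 151 ± 3.92 RPKM in rbpl seeds and 152 ± 5.38 RPKM in WT seeds (SD, n = 3 each). The coefficient of variation between libraries was 2.59% in rbpl seeds and 3.55% in WT seeds. The log2 fold change was -0.0022 ± 0.094 (standard error; limma, adjusted p = 0.993), and the 95% interval, 0.859-fold to 1.16-fold, was the narrowest of the 5. Without WT-1 the log2 fold change turned to 0.023, with an adjusted p of 0.876 by limma.

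AGPL1, a plastid large subunit, was the gene that came nearest to a call. It had 23.6, 25.0 and 28.0 RPKM in the rbpl libraries, against 22.3, 19.0 and 17.9 RPKM in the WT libraries, from 2021 to 3259 reads per library. Every rbpl library lay above every WT library, with the smallest gap between rbpl-1 and WT-1. The means were 25.5 ± 2.22 RPKM in rbpl seeds and 19.7 ± 2.28 RPKM in WT seeds (SD, n = 3 each), a ratio of 1.29. The log2 fold change of 0.36 ± 0.12 (standard error) had an unadjusted p of 0.0169 and did not pass after adjustment (limma, adjusted p = 0.129). The exact permutation test of the RPKM gave p = 0.1, the smallest that 3 against 3 libraries allow. In the authors' deposited table the same gene has a log2 fold change of 0.37 and an unadjusted p of 0.0344, and 13.7% of the loci with a p there are below 0.05.

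The call for AGPL1 depended on WT-1 and on the scaling between libraries. Without WT-1 its log2 fold change was 0.44 with an adjusted p of 0.00758 by limma, a setting in which 18% of all tested loci were called. With median-of-ratios scaling, which lowers WT-1 relative to the other libraries, it was 0.43 with an adjusted p of 0.0424 by limma, and 6.5% of loci were called. In the other 11 alternatives the adjusted p lay above the threshold and the log2 fold change between 0.29 and 0.41. The direction was the same in all 13.

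AGPL3, the other plastid large subunit with a substantial level, had values of 36.1, 34.4 and 35.4 RPKM in the rbpl libraries, against 53.7, 36.7 and 42.4 RPKM in the WT libraries. All 3 rbpl libraries lay below the lowest WT library, but rbpl-1 and WT-2 were close. The means were 35.3 ± 0.826 RPKM in rbpl seeds and 44.3 ± 8.69 RPKM in WT seeds (SD, n = 3 each). The log2 fold change was -0.30 ± 0.14 (standard error; limma, adjusted p = 0.268). The WT mean owed much to WT-1, which was 1.36-fold above the mean of the other WT libraries. Without it the log2 fold change was -0.16 with an adjusted p of 0.270 by limma. Groups that do not overlap, as in AGPL1 and AGPL3, were found at 30.1% of all tested loci (12.2% with rbpl higher and 17.9% with rbpl lower), against which the 2 of 5 genes are to be read.

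AGPL4, the fourth large subunit gene, was too low for the test. It had 0.724, 0.587 and 0.923 RPKM in the rbpl libraries, against 1.02, 1.13 and 0.752 RPKM in the WT libraries. These values stand for 95, 81 and 123 reads in the rbpl libraries, against 132, 137 and 105 reads in the WT libraries. The groups overlapped, since rbpl-3 lay above WT-3. Counting alone gives an error of 10.2% of its level in rbpl libraries and 9.02% in WT libraries, so part of its spread of 22.7% and 19.9% is sampling. With no filter on level its log2 fold change was -0.17 with an adjusted p of 0.534 by limma.

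**Figure D2:**
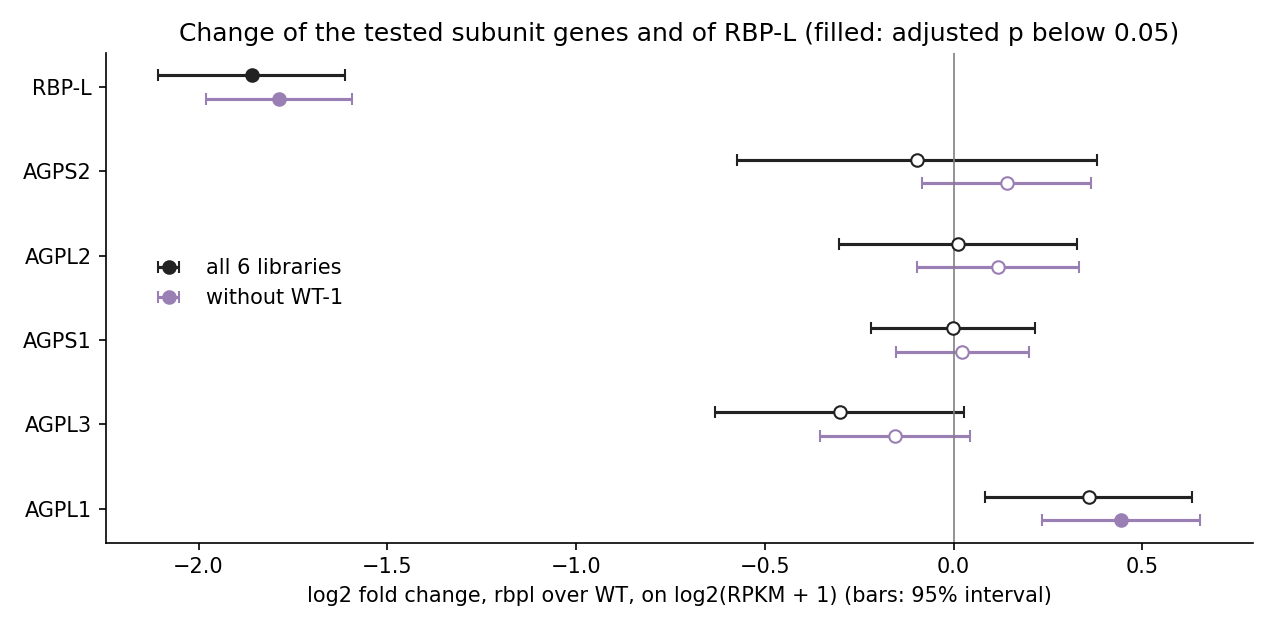
log2 fold change of rbpl over WT on the log2(RPKM + 1) scale with 95% intervals for RBP-L and the 5 tested subunit genes, from all 6 libraries in black and without WT-1 in purple, filled where the adjusted p is below 0.05. RBP-L is far below 0 at -1.86; of the subunit genes only AGPL1, at 0.44 without WT-1, is filled, and AGPS2 changes sign, to 0.14, when WT-1 is left out.

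The balance of large and small subunit transcripts was then compared, since the enzyme needs both and a ratio within a library does not depend on the scaling between libraries. The 4 large subunit genes summed to 502, 565 and 603 RPKM in the rbpl libraries, against 643, 521 and 507 RPKM in the WT libraries. The 2 small subunit genes summed to 579, 630 and 691 RPKM in the rbpl libraries, against 871, 589 and 579 RPKM in the WT libraries. Neither sum differed beyond the spread of the libraries: the large subunit sum averaged 557 ± 50.8 RPKM in rbpl seeds and 557 ± 75.2 RPKM in WT seeds (SD, n = 3 each; exact permutation p = 1), and the small subunit sum 633 ± 56.3 RPKM in rbpl seeds and 680 ± 166 RPKM in WT seeds (exact permutation p = 0.8; n = 3 each). Without WT-1 the WT means were 514 RPKM for the large and 584 RPKM for the small subunit genes, so that both sums were then higher in rbpl seeds, by 43.1 and 49.3 RPKM (exact permutation p = 0.6 for each).

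The ratio of large to small subunit level was 0.868, 0.898 and 0.872 in the rbpl libraries, against 0.739, 0.885 and 0.875 in the WT libraries. WT-1 lay below a narrow band that held the other 5 libraries. The means, 0.879 ± 0.0162 in rbpl seeds and 0.833 ± 0.0814 in WT seeds, gave an exact permutation p of 0.6 (n = 3 each). The mean of WT-2 and WT-3 alone was 0.880. By RPKM the small subunit level was thus the higher of the 2 kinds in every library. That order rests on the gene lengths behind the RPKM, recovered as 3445 bp for AGPL2, 2322 bp for AGPS2 and 2029 bp for AGPS1.

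AGPL2 made up 88.0%, 89.4% and 89.3% of the large subunit level in the rbpl libraries, against 88.0%, 89.1% and 88.0% in the WT libraries (exact permutation p = 0.3; n = 3 each). AGPS2 made up 73.7%, 76.6% and 77.6% of the small subunit level in the rbpl libraries, against 82.0%, 74.3% and 74.8% in the WT libraries (exact permutation p = 0.8; n = 3 each). The mean AGPS2 share was 76.0% in rbpl seeds and 77.0% in WT seeds, or 74.5% in WT seeds without WT-1, which turned the difference. AGPL2 and AGPS2 therefore held most of the level of their kind in both lines. The AGPS2 share is that of the locus and does not separate its cytosolic from its plastid product. In bulk seeds fewer cells of a type and less RNA per cell cannot be told apart, and embryo, pericarp and endosperm were not separated.

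Within the remainder of the large subunit transcript the groups parted. The ratio of AGPL1 to AGPL3, taken up after the values of both genes had been seen, was 0.655, 0.726 and 0.791 in the rbpl libraries, against 0.415, 0.518 and 0.422 in the WT libraries. All rbpl libraries lay above all WT libraries, and WT-1 did not stand apart. The means were 0.724 ± 0.0678 in rbpl seeds and 0.452 ± 0.0576 in WT seeds (SD, n = 3 each), 1.60-fold higher in rbpl, or 1.54-fold against WT-2 and WT-3 alone. The exact permutation p was 0.1, the smallest possible, and because the pair was picked for its opposite directions this value supports nothing further.

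AGPL1 made up 4.70%, 4.42% and 4.64% of the large subunit level in the rbpl libraries, against 3.46%, 3.65% and 3.53% in the WT libraries. These shares did not overlap either, and they lay close together within each group, WT-1 included. AGPL2 held most of the large subunit level, so this share mainly sets AGPL1 against AGPL2. On plain level 30.1% of all tested loci did not overlap, and how often such shares do so was not computed. AGPL3 made up 7.18%, 6.09% and 5.87% in the rbpl libraries, against 8.35%, 7.04% and 8.36% in the WT libraries, where rbpl-1 lay above WT-2. Set against AGPS1, AGPL1 stood at 0.169 ± 0.0126 in rbpl seeds and 0.130 ± 0.0105 in WT seeds (SD, n = 3 each). AGPL3 stood at 0.233 ± 0.00455 in rbpl seeds and 0.291 ± 0.0501 in WT seeds, or 0.266 in WT seeds without WT-1. For AGPL3 the nearest libraries were rbpl-1 at 0.237 and WT-2 at 0.242. The exact permutation p was 0.1 for both ratios, the smallest possible. AGPS1 varied little, so both ratios mostly repeat the levels of AGPL1 and AGPL3. These shares and ratios were also chosen after the levels were known, so their parting of the groups and their p-values support nothing further. The summed level of AGPL1, AGPL3 and AGPL4 was 61.5 ± 2.35 RPKM in rbpl seeds and 65.0 ± 10.7 RPKM in WT seeds (SD, n = 3 each; exact permutation p = 0.8), and 58.9 RPKM in WT seeds without WT-1.

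**Figure D3:**
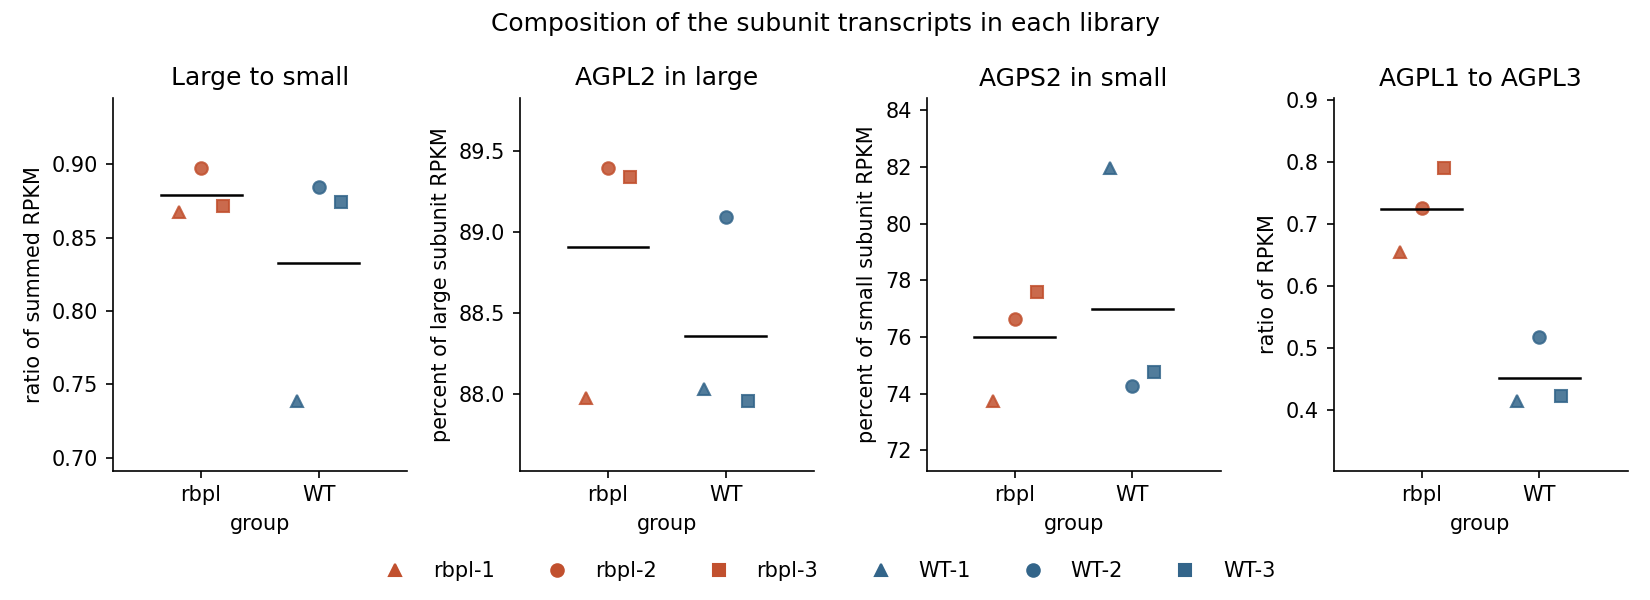
Ratios and shares per library, rbpl in red left of WT in blue, with a black line at each group mean; axes do not start at 0. The ratio of large to small subunit level is lowest in WT-1 at 0.739 and close to 0.88 elsewhere, AGPL2 holds 88.0% to 89.4% of the large and AGPS2 73.7% to 82.0% of the small subunit level, and the AGPL1 to AGPL3 ratio is 0.655 to 0.791 in rbpl and 0.415 to 0.518 in WT.

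Markers of other seed tissues were set beside these values. The 4 loci listed for green tissue (rubisco small subunit and chlorophyll-binding proteins) summed to between 4306 and 5045 RPKM in rbpl seeds, against 1849 to 4012 RPKM in WT seeds, with the lowest sum in WT-1. Of these 4, 2 rose and 0 fell by limma, beside 3.46% that rose of all loci, and 0 were at 0. Without WT-1, 3 of the 4 rose, a setting in which 1478 of 17372 tested loci rose. The 2 loci listed for embryo oil bodies summed to between 4512 and 5894 RPKM in rbpl seeds, against 4585 to 5135 RPKM in WT seeds, and 0 of 2 were called (0 with an unadjusted p below 0.05; limma, and 0 of 2 without WT-1). The part of any of these tissues in the AGPL1 and AGPL3 values was not tested. The assignment of these loci and of those below rests on published rice locus numbers; the file itself gives identifiers only.

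Other loci of the pathway were read from a list of 30, of which 29 were analysed here, all past the filter on level. They cover the starch synthases, which extend the glucan chains, the branching and debranching enzymes that shape amylopectin, phosphorylases and disproportionating enzymes, the transporter that brings ADP-glucose into the amyloplast, and the enzymes that lead from sucrose to glucose 1-phosphate. Of the 29, 1 rose and 0 fell by limma, where 6.56% of all tested loci were called. Before adjustment 10 of the 29 had a limma p below 0.05, beside 3777 of the 17507 loci tested. The median log2 fold change was -0.08, beside -0.04 over all tested loci, with 10 loci above 0 and 19 below. The single call was among the 10 starch synthase loci, LOC_Os07g22930, at a log2 fold change of 0.55 (limma, adjusted p = 0.0177). The call was lost with the replicate block (limma, adjusted p = 0.0546) and on leaving out any library other than WT-1 (0.0616 to 0.0874). Without WT-1 it was 6 loci of the list that rose and 1 that fell, at a median of -0.0037, where 18% of all loci were called.

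By class, the 10 synthase loci had a median log2 fold change of -0.14 and summed to 1292, 1225 and 1241 RPKM in the rbpl libraries, against 1622, 1417 and 1449 RPKM in the WT libraries, without overlap (exact permutation p = 0.1, the smallest possible). Of all tested loci 30.1% did not overlap either, 17.9% with rbpl lower. The lower sum does not hold for each synthase locus: 4 had a log2 fold change above 0 and 6 below. The 3 branching enzyme loci summed to between 1652 and 1874 RPKM in rbpl seeds, against 1691 to 2296 RPKM in WT seeds, and their median log2 fold change was -0.02. The 3 debranching enzyme loci summed to between 212 and 236 RPKM in rbpl seeds, against 235 to 299 RPKM in WT seeds, with a median log2 fold change of -0.26, and the 4 phosphorylase and disproportionating loci to between 370 and 447 RPKM in rbpl seeds, against 385 to 505 RPKM in WT seeds, with a median of 0.05. The 8 loci of substrate supply had a median of -0.11 and sums of 1248 to 1426 RPKM in rbpl seeds, against 1351 to 1575 RPKM in WT seeds. The transporter locus had 8351, 7759 and 6697 RPKM in the rbpl libraries, against 5243, 8404 and 6855 RPKM in the WT libraries, with an adjusted p of 0.649 by limma. WT-1 held the highest sum of the synthase, branching, debranching, phosphorylase and disproportionating, and supply loci, and the lowest level of the transporter.

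**Figure D4:**
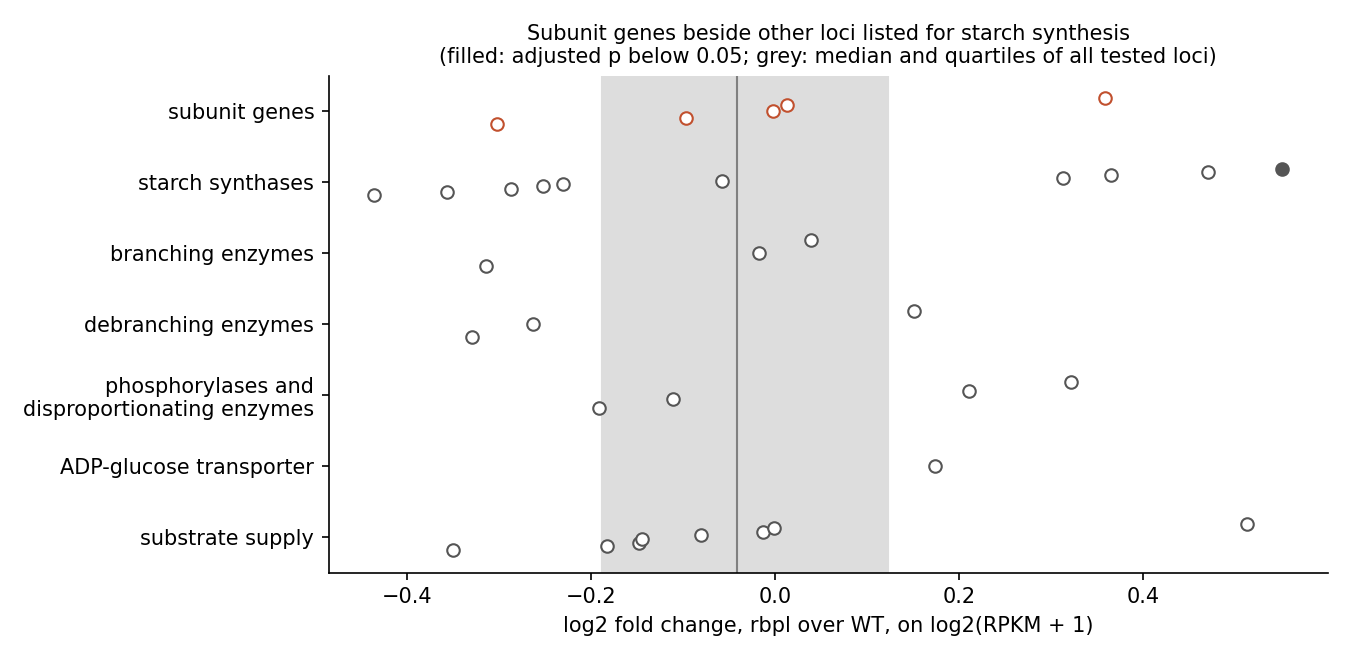
log2 fold change of rbpl over WT for each of the 5 tested subunit genes (red) and the 29 other loci listed for starch synthesis by class (grey), filled where the adjusted p is below 0.05, with the median and quartiles of all tested loci shaded. The subunit genes lie between -0.30 and 0.36, and the single filled point is a starch synthase locus at 0.55.

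The transcripts of the cytosolic pair varied together across libraries. On the log2(RPKM + 1) scale AGPL2 and AGPS2 had a Pearson correlation of 0.92 over the 6 libraries, which include both lines and the high WT-1, and by this measure AGPS2 ranked 108th in likeness to AGPL2, and AGPL2 283rd in likeness to AGPS2, among 7030 loci with a mean of at least 10 RPKM. AGPL2 correlated at 0.65 with AGPS1, 0.56 with AGPL1 and 0.42 with AGPL3, and AGPS2 at 0.72 with AGPS1, 0.33 with AGPL1 and 0.72 with AGPL3. The loci most like AGPL2 were LOC_Os03g20980, with r = 0.994, and LOC_Os08g33720, with r = 0.993. The loci most like AGPS2 were LOC_Os02g52880, with r = 0.998, and LOC_Os04g33880, with r = 0.995. The files do not annotate these 4 loci. LOC_Os02g52880 had 17.1, 18.3 and 20.2 RPKM in the rbpl libraries, against 24.5, 17.3 and 17.1 RPKM in the WT libraries, with its highest value in WT-1 as in AGPS2. With 6 libraries many loci reach such values, 178 above 0.9 for AGPL2 and 448 for AGPS2.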

How the data were processed

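RNA from 3 rbpl and 3 WT seed samples was sequenced from NEBNext Ultra RNA libraries, per the labels' protocols. The authors deposited 1 table with the RPKM of each library, per the file headers; for aligner, counter, build and annotation, nothing is stated in the labels used here. Its columns of the authors' comparison (log2 fold change, p-value) were used only where named. Libraries are called by title, and nothing says whether repeats share plants, so p-values measure the spread between these samples.

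Whole reads and totals were recovered from the RPKM steps (100.0% of 32287 loci above 0, tolerance 0.001 reads plus 2e-08 of the count); on 2970 simulated loci 96.6% were returned exactly. Intervals from reads cover counting error only. Groups were compared with limma 3.58.1 in R 4.3.3 on log2(RPKM + 1), with its trend and robust options and no covariates, two-sided, with Benjamini-Hochberg adjustment over all tested loci. It was tested on simulated data. Fold changes on this scale understate those of low loci. Sums and ratios were compared by exact permutation, two-sided (scipy 1.17.1), which cannot go below 0.1. Alternatives were pseudocount, filter, scaling, limma-voom, a block and each library left out.

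The members and lists were chosen with earlier results of these data known. Named genes were the 6 members, RBP-L, the 2 loci most like AGPL2 and AGPS2, and list loci that were called. Of the members 1, AGPS2, was found by symbol in the RefSeq table (0 by identifier); the other names follow the list that defined them. Sequences were not used here.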

Additional observations from a re-analysis of the deposited data

How the results depend on the processing

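Results were recomputed under 13 alternatives, among them each library left out. AGPL3 kept its direction and stayed uncalled in all of them, with log2 fold changes from -0.43 to -0.16. AGPL1 kept its direction, with 0.43 (adjusted p 0.0424, median-of-ratios scaling) and 0.44 (adjusted p 0.00758, without WT-1) past the threshold by limma, so that the number of members called was 1 in these settings and 0 to 1 when 1 library was left out, with AGPL1 at 0.29 to 0.44. AGPL4 passed the filter only without WT-3, at -0.25, and with no filter. Members near 0 changed sign without a call: AGPL2 had -0.054 to 0.12 and AGPS2 -0.22 to 0.14 with 1 library left out, and AGPS1 had 0.073 with median-of-ratios scaling, 0.012 with upper-quartile scaling and -0.027 to 0.023 with 1 library left out. Median-of-ratios scaling moved the median of all loci to 0.02, against -0.04. All loci called were 1148, 660 under a filter at 5 RPKM, where 10744 loci are tested, and 356 (without rbpl-1) to 3130 (without WT-1) with 1 library left out. Leaving out WT-1 raised the count, and leaving out any other library lowered it. The starch list held 1 call, 2 with median-of-ratios scaling, 2 with limma-voom, 0 with the replicate block and 0 to 7 with 1 library left out (7 without WT-1). For these, the cause was not tested. The large and small subunit sums, their ratio, the AGPL2 and AGPS2 shares and the AGPL1 to AGPL3 ratio were carried through the alternatives that apply. These moved by less than the larger of the group SDs, for most the WT one, which WT-1 widens. The other sums, shares and ratios were not carried through all of them. Without WT-1 the differences, rbpl minus WT, turned: the small subunit sum had 49.3 against -46.2 RPKM, the large subunit sum 43.1 against -0.11 RPKM (30.5 with median-of-ratios and 5.16 with upper-quartile scaling), the ratio of large to small -0.00046 against 0.0464 and the AGPS2 share 1.48 against -1.0 percentage points. The AGPL1 to AGPL3 difference was 0.27 and lay between 0.24 and 0.31 with 1 library left out. That pair was picked for its opposite directions, and each gene alone already parted the groups. The range therefore adds no support.

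The labels tie same-numbered libraries by number only, and do not say whether they are paired. Their deviations correlated at 0.0476, 0.259 and -0.380, with 2 of 6 libraries closest to their own number. So few libraries cannot settle whether a pairing exists. With the replicate block 963 loci were called, AGPL1 had an adjusted p of 0.241 by limma, and no member changed its call; for the AGPL1 to AGPL3 ratio the smallest p within 3 pairs is 0.25, which it had. Depth limits only AGPL4, at 81 to 137 reads per library.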
